A study of Arabidopsis thaliana with 12 samples.

Results

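The seed storage genes examined here encode the 2 main kinds of storage protein of the Arabidopsis seed and the coat protein of its oil bodies. They are the 5 genes of 2S albumins, SESA1 to SESA5, the 3 genes of 12S cruciferins, CRA1, CRB and CRC, and the 2 oleosin genes OLEO1 and OLEO2. They were selected by their AGI locus codes and are 10 of 38093 genes, with 19 of 64480 transcripts, in the deposited tables. RNA was sequenced from whole seedlings of 4 genotypes, per the labels' source field, with 3 libraries each and 12 in all: the wild type Col-0 and 3 mutants, gun1-1, gun4-1 and gun5-1. All of them, controls included, were grown for 5 days on medium with 5 µM norflurazon, a herbicide that blocks the making of carotenoids so that plastids are damaged in the light, at 100 µE. GUN5 is the H subunit of magnesium chelatase, an enzyme of chlorophyll synthesis that GUN4 stimulates, and GUN1 is a plastid protein with pentatricopeptide repeats. No untreated seedlings and no dry seeds were analysed here, so every value below compares mutant with wild type on the inhibitor.

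Storage albumins and cruciferins are made in the maturing embryo, processed and laid down in storage vacuoles, and broken down after germination to feed the seedling. Oleosins cover the oil bodies of the same cells and are removed as the stored oil is used. Their genes are switched on late in seed development by the transcription factors LEC1, LEC2, FUS3 and ABI3, of which the last 3 are B3-domain proteins that bind the RY element, with bZIP factors at G-boxes, and are repressed in the seedling by VAL proteins and chromatin factors such as PKL. At day 5, a transcript of these genes may be left from the seed or newly made, and a level in whole seedlings does not tell these apart. Nor does it tell fewer cells that hold a transcript from less transcript per cell.

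The bases in front of the albumin genes show what the 5 albumins have in common, since these genes did not move alike, with CRA1, the most abundant cruciferin in Col-0, beside them. The sequences are the 250 bases before the annotated gene start, read 5′ to 3′ on the gene's strand from the RefSeq genome of build TAIR10.1. Capitals mark CATGCA, the letters of the RY element, and CACGTG, the G-box, on either strand.
SESA1 promoter, chr4:13607079-13607328, plus strand: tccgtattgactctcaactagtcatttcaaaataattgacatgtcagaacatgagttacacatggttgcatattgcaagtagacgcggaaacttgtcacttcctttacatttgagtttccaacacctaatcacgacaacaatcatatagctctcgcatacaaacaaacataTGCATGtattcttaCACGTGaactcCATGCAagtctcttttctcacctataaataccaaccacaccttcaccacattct
SESA2 promoter, chr4:13609091-13609340, plus strand: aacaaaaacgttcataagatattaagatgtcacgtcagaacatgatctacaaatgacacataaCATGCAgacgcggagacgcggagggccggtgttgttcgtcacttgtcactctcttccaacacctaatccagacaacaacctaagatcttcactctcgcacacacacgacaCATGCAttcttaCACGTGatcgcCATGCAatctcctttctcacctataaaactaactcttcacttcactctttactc
SESA3 promoter, chr4:13611546-13611795, plus strand: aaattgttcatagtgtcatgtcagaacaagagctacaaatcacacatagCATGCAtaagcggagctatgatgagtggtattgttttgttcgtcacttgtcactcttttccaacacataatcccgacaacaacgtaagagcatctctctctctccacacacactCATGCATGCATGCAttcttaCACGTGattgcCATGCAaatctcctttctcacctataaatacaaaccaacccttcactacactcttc
SESA4 promoter, chr4:13613346-13613595, plus strand: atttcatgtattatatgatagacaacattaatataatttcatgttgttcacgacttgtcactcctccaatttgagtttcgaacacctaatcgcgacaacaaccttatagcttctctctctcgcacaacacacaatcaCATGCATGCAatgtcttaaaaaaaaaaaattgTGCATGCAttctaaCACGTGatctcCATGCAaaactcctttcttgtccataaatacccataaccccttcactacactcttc
SESA5 promoter, chr5:22239188-22239437, minus strand: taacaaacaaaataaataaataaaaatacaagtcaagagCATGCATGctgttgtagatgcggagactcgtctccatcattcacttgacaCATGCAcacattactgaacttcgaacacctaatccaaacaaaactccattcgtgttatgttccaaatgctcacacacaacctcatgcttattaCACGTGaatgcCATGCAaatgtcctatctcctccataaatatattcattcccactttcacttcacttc
CRA1 promoter, chr5:17758337-17758586, minus strand: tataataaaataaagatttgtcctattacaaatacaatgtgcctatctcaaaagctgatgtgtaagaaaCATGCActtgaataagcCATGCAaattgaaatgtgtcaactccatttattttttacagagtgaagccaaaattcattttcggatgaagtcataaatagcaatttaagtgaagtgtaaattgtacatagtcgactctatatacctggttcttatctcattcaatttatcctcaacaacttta
In each albumin promoter a G-box is followed, after 5 further bases, by CATGCA, with the G-box starting 65 to 68 bases before the gene start. The spacing was seen in the printed sequences and then searched on both strands: CACGTGNNNNNCATGCA was in 5 of the 10 members, the 5 albumins, and in 9 of 27437 promoters of protein-coding genes (0.0328%). CATGCA was in 9 of 10 member promoters against 8.43% of all promoters, and CACGTG in 6 of 10 against 6.49%. SESA3 held 7 overlapping or separate copies of CATGCA, SESA4 6, SESA5 4, SESA2 and OLEO1 3 each, SESA1, CRA1 and OLEO2 2 each and CRC 1. ACGTG, the core of abscisic acid response elements and also part of every G-box, was in 7 of 10 members and in 22.9% of promoters. TATAAA was in 5 of 10 members against 47.4% of promoters, and GATAAG in 1 of 10 against 12.3%. A match of letters is a description and not a binding site.

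In Col-0, the storage transcripts ranged from 1.11 to 81.8 FPKM in the gun1-1 table, where FPKM is the authors' measure of fragments scaled to transcript length and library size, given as 1 value per genotype. CRA1 was highest with 81.8 FPKM, rank 1760 of all genes, followed by SESA5 with 57.7 FPKM, rank 2526, and CRC with 32.7 FPKM, rank 4336. These 3 genes made up 81.1% of the summed FPKM of the 10. SESA2 (10.3), OLEO1 (9.83), SESA3 (8.51) and OLEO2 (6.12 FPKM) came next, and SESA4 (2.71), SESA1 (1.50) and CRB (1.11 FPKM) were lowest. The deposited tables hold no value per library, so the order of neighbours within this ranking cannot be set against a spread between replicates. The same 3 Col-0 libraries stand in all 3 tables, where the authors' scaling made their median value 1.07 times as high in the gun4-1 table, and 0.984 times as high in the gun5-1 table, as in the gun1-1 table.

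Summed over the 10 genes, the level was lower in each mutant. By the authors' deposited FPKM the sum was 212 in Col-0 and 56.7 in gun1-1, 228 and 17.2 in the gun4-1 table, and 209 and 60.2 in the gun5-1 table. On the log2 scale of summed FPKM these are ratios of -1.90, -3.73 and -1.79, of which no test can be given. The cruciferin sum was 18.1 times as high in Col-0 as in gun4-1, the albumin sum 11.2 times and the oleosin sum 6.74 times. In gun1-1 the corresponding factors were 4.43, 3.24 and 2.77, and in gun5-1 they were 5.38, 2.46 and 2.31. The factor was largest for the cruciferins in all 3 tables, while the order of albumins and oleosins rested on SESA5. Without SESA5, a set added after seeing the data, the albumin sum was 2.44 times as high in Col-0 as in gun1-1, 3.62 times as in gun4-1 and 1.02 times as in gun5-1, each below the oleosin factor. Without SESA5, CRA1 and CRC, the sum of the other 7 genes gave log2 ratios of -1.37 in gun1-1, -2.15 in gun4-1 and -0.34 in gun5-1. The 3 genes left out were 81.1% of the Col-0 sum in each table, so they weigh most in every ratio of sums.

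**Figure D1:**
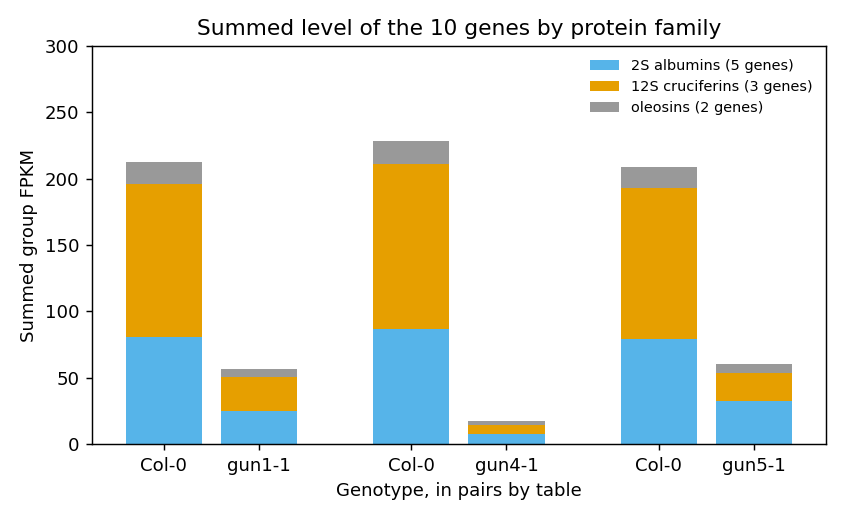
Summed group FPKM of the 10 genes (vertical axis, linear from 0) in Col-0 and the mutant of each table (horizontal axis), split into 2S albumins, 12S cruciferins and oleosins. The sums in the mutants were 56.7, 17.2 and 60.2 FPKM, against 212, 228 and 209 FPKM in Col-0 of the same tables.

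Calls below rest on the authors' deposited Cuffdiff test: a gene was called higher or lower with q under 0.05, q being adjusted over all tested transcripts of a table. In gun1-1, 7 of the 9 members tested were lower and 0 higher, where 33.7% of 18776 tested genes were called, 14.9% as lower and 18.8% as higher. In gun4-1, 3 of 9 were lower and 0 higher, against 14.1% of 18977 genes called, 5.9% as lower and 8.23% as higher. In gun5-1, 2 of 10 were lower and 2 higher, against 29.5% of 18531 genes called, 13.1% as lower and 16.4% as higher. The median log2 fold change of the tested members was -1.64 in gun1-1, -2.51 in gun4-1 and -1.25 in gun5-1, while that of all tested genes was -0.02, 0.00082 and -0.01. SESA2 and SESA5 were lower in all 3 mutants by the authors' q, and SESA1 and OLEO1 were called in none. The 3 comparisons share their Col-0 libraries, so they are not independent of each other. CRB was untested in gun1-1 and gun4-1, where its level was low. With p-values taken from the deposited test statistic instead of the deposited p, the count in gun1-1 was 4, those of SESA3, SESA5, CRA1 and CRC, so SESA2, SESA4 and OLEO2 lost their calls there.

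**Figure D2:**
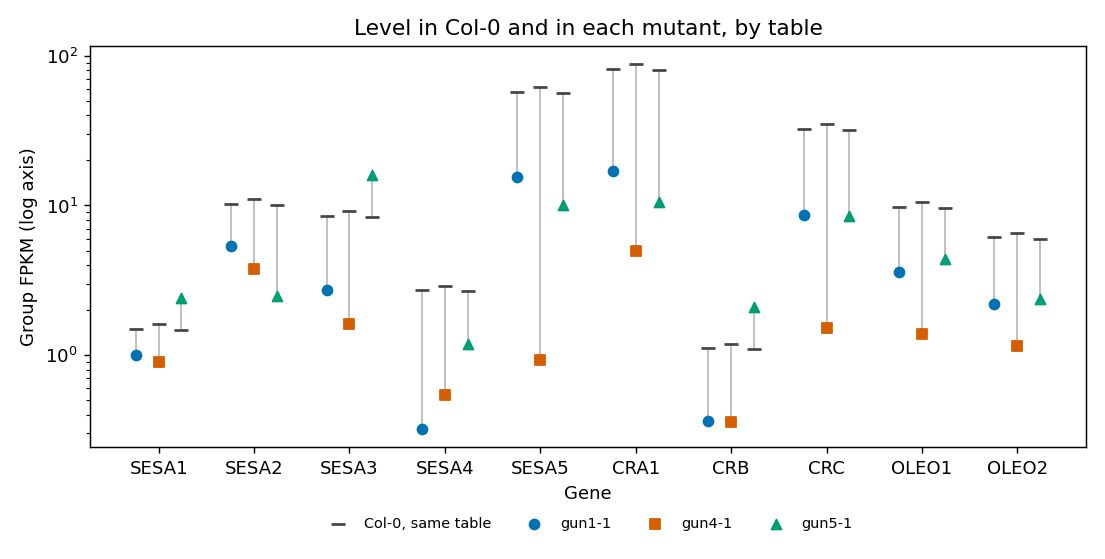
Group FPKM (vertical axis, log scale) of each gene (horizontal axis) in the 3 mutants, each joined by a line to Col-0 of the same table. SESA5, CRA1 and CRC stand highest in Col-0, and each lies lower in gun4-1 than in the other mutants. SESA3, CRB and SESA1 lie above Col-0 in gun5-1.

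Of the albumins, SESA5 (AT5G54740, chromosome 5, 22238358 to 22239187 in the deposited coordinates, whose build is not given) was the most abundant in Col-0, and its change was the largest in gun4-1 and gun5-1. By the authors' deposited table, SESA5 was at 57.7 FPKM in Col-0 and 15.5 in gun1-1. In the gun4-1 table it was at 62.0 FPKM in Col-0 and 0.929 in gun4-1, and in the gun5-1 table at 56.7 and 10.1. It was the second most abundant of the 10 in Col-0 and was at 0.929 FPKM in gun4-1, beside SESA1 with 0.894 FPKM. The log2 fold change was -1.90 (SE 0.28, q = 0.000376) in gun1-1, -6.06 (SE 0.80, q = 0.00103) in gun4-1 and -2.49 (SE 0.31, q = 0.00042) in gun5-1. The deposited p of SESA5 was the smallest listed in all 3 tables, so these SE come from the test statistic alone, as set out with the processing. Taken from that p, the SE would be wider, at 0.47, 1.49 and 0.61. The fall in gun4-1 exceeded that in gun1-1 by 4.16 (SE 0.85) on the log2 scale, and gun4-1 minus gun5-1 was -3.57 (SE 0.86). Both passed a normal test of the difference between mutants, adjusted over all genes tested in both tables at 0.05, which 6.19% and 2.79% of all genes passed. The difference between gun4-1 and gun5-1 did not pass with the SE taken from the deposited p alone. Between gun1-1 and gun5-1 the difference of 0.59 (SE 0.42) did not pass (95% interval -0.22 to 1.41).

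The other 4 albumins lie in 1 tandem array on chromosome 4, all on the plus strand, 1032 to 1720 bases apart and with no other protein-coding gene between them. SESA2 (AT4G27150, chromosome 4, 13609341 to 13610075) was at 10.3 FPKM in Col-0 and 5.36 in gun1-1, at 11.0 and 3.76 in the gun4-1 table, and at 10.1 and 2.48 in the gun5-1 table. It was lower in each, by -0.94 (SE 0.45, q = 0.00656), -1.55 (SE 0.51, q = 0.00103) and -2.03 (SE 0.49, q = 0.00042) on the log2 scale. With p from the test statistic, its calls in gun1-1 and gun4-1 ended and that in gun5-1 stood. No difference of SESA2 between mutants passed: the largest was 1.09 (SE 0.67) between gun1-1 and gun5-1, with a 95% interval from -0.22 to 2.39.

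SESA3 (AT4G27160, chromosome 4, 13611796 to 13612563), the next gene in the array, moved in opposite directions. It was at 8.51 FPKM in Col-0 and 2.73 in gun1-1, and at 9.14 and 1.62 in the gun4-1 table. In the gun5-1 table it was at 8.37 FPKM in Col-0 and 16.1 in gun5-1, where it was the most abundant of the 10 transcripts. SESA3 thus fell by 1.64 (SE 0.57, q = 0.000376) in gun1-1 and by 2.49 (SE 0.58, q = 0.00103) in gun4-1 and rose by 0.94 (SE 0.37, q = 0.00151) in gun5-1. The change in gun1-1 minus that in gun5-1 was -2.58 (SE 0.68) and passed the test of the difference, as did 1.71% of all genes. The change in gun4-1 minus that in gun5-1 was -3.44 (SE 0.69) and passed too, as did 2.79% of all genes. SESA3 made up 4.01% of the summed FPKM of the 10 genes in Col-0 of the gun5-1 table and 26.7% in gun5-1. The rise of SESA3 in gun5-1 lost its call when p-values were taken from the deposited test statistic.

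SESA4 (AT4G27170, chromosome 4, 13613596 to 13614283) was at 2.71 FPKM in Col-0 and 0.320 in gun1-1, at 2.91 and 0.543 in the gun4-1 table, and at 2.67 and 1.19 in the gun5-1 table. It fell in gun1-1, by 3.08 with a wide SE of 1.65 (q = 0.0232), a log2 fold change that was -1.49 with 1 FPKM added to both levels. In gun4-1 and gun5-1 its log2 fold changes of -2.42 (SE 1.42, q = 0.342) and -1.16 (SE 0.90, q = 0.167) did not pass. SESA1 (AT4G27140, chromosome 4, 13607329 to 13608031) was at 1.50 FPKM in Col-0 and 0.999 in gun1-1, at 1.62 and 0.894 in the gun4-1 table, and at 1.48 and 2.41 in the gun5-1 table. None of its changes passed (-0.59, -0.86 and 0.70, with SE of 1.17, 1.05 and 0.85).

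**Figure D3:**
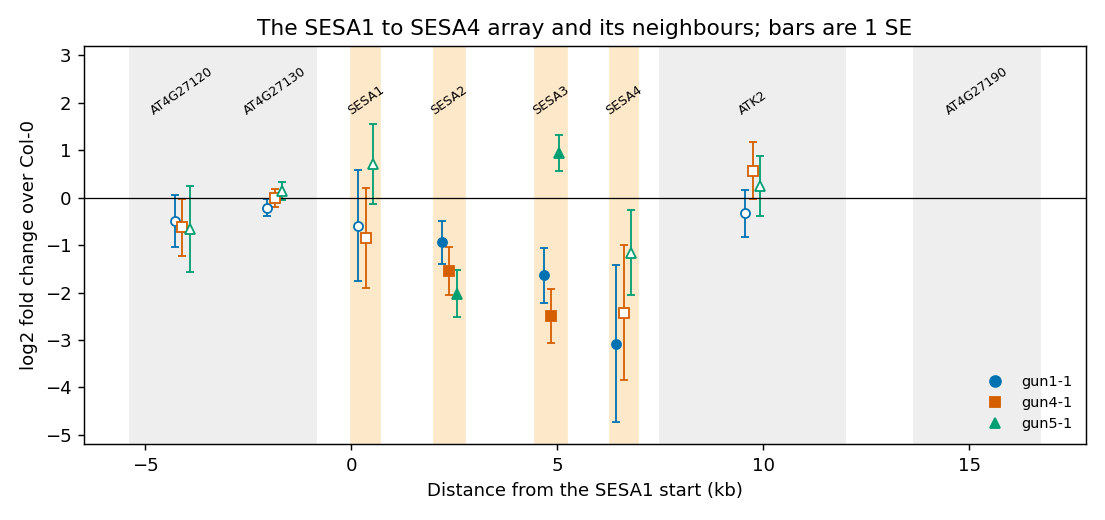
Log2 fold change over Col-0 (vertical axis, bars are 1 SE) of SESA1 to SESA4 and of the nearest 2 genes on each side, at their distance from the SESA1 start in kb (horizontal axis). Filled points passed q under 0.05; SESA2 lay at -2.03 and SESA3 at 0.94 in gun5-1, and no neighbour was called.

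Genes beside the array were looked at in the same tables. Of the nearest 2 protein-coding genes on each side, AT4G27130, whose level in Col-0 was 190 FPKM, gave log2 fold changes of -0.21, -0.01 and 0.15 in gun1-1, gun4-1 and gun5-1. AT4G27120 gave -0.49, -0.62 and -0.66 and ATK2, a kinesin gene, -0.33, 0.57 and 0.25. None of these was called, and AT4G27190 was listed at 0 FPKM in every table. The coding sequences of SESA1 to SESA4 were 80.6% to 89.7% identical, and SESA5 was 60.9% to 62.8% identical to them. SESA2 and SESA3 were the closest pair, with 463 of 516 aligned positions alike. Their longest identical stretch in the coding sequence was 49 bases, shown because reads of this pair can be alike there, in SESA2 at chr4:13609820-13609868 on the plus strand of TAIR10.1.
SESA2 and SESA3, shared coding stretch: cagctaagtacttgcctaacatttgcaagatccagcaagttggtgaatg
The stretch is bases 425 to 473 of the SESA2 and 404 to 452 of the SESA3 coding sequence. The assignment of reads within the array depends on the authors' alignment, and values of SESA1 to SESA4 are to that extent uncertain. In the gun5-1 table SESA2 fell from 10.1 to 2.48 FPKM while SESA3 rose from 8.37 to 16.1 FPKM. The sum of SESA1 to SESA4 was 22.6 FPKM in Col-0 and 22.2 FPKM in gun5-1. Whether reads of SESA2 and SESA3 were divided differently in gun5-1 was not tested.

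Of the cruciferins, CRA1 and CRC were abundant in Col-0 and low in every mutant, but only their changes in gun1-1 passed. CRA1 (AT5G44120, chromosome 5, 17756238 to 17758336) was at 81.8 FPKM in Col-0 and 17.1 in gun1-1, at 87.9 and 4.99 in the gun4-1 table, and at 80.4 and 10.6 in the gun5-1 table. It fell by 2.26 (SE 0.23, q = 0.000376) in gun1-1. Larger log2 fold changes in gun4-1, -4.14 (SE 1.97, q = 0.194), and in gun5-1, -2.93 (SE 1.40, q = 0.122), did not pass. Their unadjusted p-values in the authors' deposited tables were 0.0358 and 0.0362, with test statistics of -5.42 and -3.95. Taken from the statistic, CRA1 passed in all 3 mutants. The SE given for CRA1 in gun1-1 is from the statistic, and those in gun4-1 and gun5-1 are from the deposited p. From the statistic alone they were 0.23, 0.76 and 0.74, and from the deposited p 0.56, 1.97 and 1.40.

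CRC (AT4G28520, chromosome 4, 14087556 to 14089796) was at 32.7 FPKM in Col-0 and 8.63 in gun1-1, at 35.1 and 1.53 in the gun4-1 table, and at 32.1 and 8.49 in the gun5-1 table. Its log2 fold change was the same in gun1-1 and gun5-1 to 2 decimals, -1.92, yet it passed in gun1-1 (SE 0.36, q = 0.000376) and not in gun5-1 (SE 1.61, q = 0.434). In gun4-1 the change of -4.52 (SE 2.79, q = 0.373) did not pass, though CRC passed there with p from the test statistic. The SE given for gun1-1 is from the statistic, and those for gun4-1 and gun5-1 are from the deposited p. From the statistic alone the SE in gun1-1, gun4-1 and gun5-1 were 0.36, 0.84 and 0.75, and from the deposited p 0.47, 2.79 and 1.61. The second transcript of CRC, with 13.0 FPKM in Col-0 and 4.38 in gun1-1, fell by 1.57 there (q = 0.000714). Its log2 fold changes in gun4-1 and gun5-1, -3.56 (q = 0.398) and -1.52 (q = 0.457), did not pass, as for the main transcript. Whether 1 library of a mutant stood apart in CRA1 and CRC was not tested, since the tables give no value per library.

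CRB (AT1G03880, chromosome 1, 985751 to 988146), near 1 FPKM in Col-0, was at 0.360 FPKM in gun1-1 and 0.358 in gun4-1 and was tested in neither. In gun5-1 it rose from 1.09 to 2.10 FPKM, by 0.94 (SE 0.61, q = 0.044), a call that was lost at q under 0.01 and with p from the test statistic. The 3 cruciferins, each with 4 exons, were 57.3% to 73.9% identical in coding sequence, and their longest identical stretch was 26 bases.

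**Figure D4:**
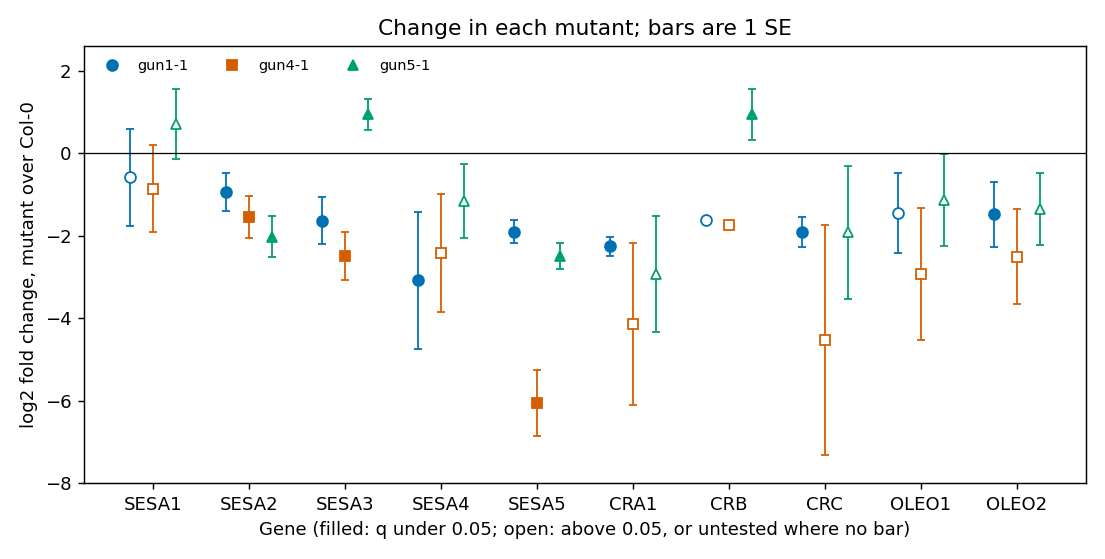
Log2 fold change of each gene over Col-0 (vertical axis) by mutant, with bars of 1 SE; filled points passed q under 0.05 and points without a bar were untested. SESA5 in gun4-1 lies lowest at -6.06, while CRA1 and CRC in gun4-1, at -4.14 and -4.52, carry bars of 1.97 and 2.79. These 2 bars are from the deposited p, while those of CRA1 and CRC in gun1-1 are from the test statistic.

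The oleosins followed the same sign in all mutants, with 1 of 6 tests passed. OLEO2 (AT5G40420), in a deposited span on chromosome 5 from 16171374 to 16174783 that is longer than the RefSeq gene, was at 6.12 FPKM in Col-0 and 2.18 in gun1-1, at 6.57 and 1.16 in the gun4-1 table, and at 6.01 and 2.37 in the gun5-1 table. It fell by 1.49 (SE 0.78, q = 0.0264) in gun1-1, while -2.51 (SE 1.15, q = 0.0561) in gun4-1 and -1.34 (SE 0.87, q = 0.293) in gun5-1 did not pass. OLEO1 (AT4G25140), in a deposited span on chromosome 4 from 12900430 to 12907796 that also runs past the RefSeq gene, was at 9.83 FPKM in Col-0 and 3.58 in gun1-1, at 10.6 and 1.39 in the gun4-1 table, and at 9.66 and 4.41 in the gun5-1 table. Its log2 fold changes of -1.46, -2.93 and -1.13 did not pass (q = 0.118, 0.288 and 0.473). The 2 oleosins share 49.9% of aligned coding positions, and no identical stretch over 12 bases.

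In 27 tests of a difference between 2 mutants, 9 members for each of 3 pairs, 4 passed, all of SESA5 or SESA3. For the other members the intervals are wide: for CRC, gun4-1 minus gun5-1 was -2.60 with a 95% interval from -8.91 to 3.70, and for CRA1 it was -1.21 with an interval from -5.95 to 3.53. These members can therefore not be said to respond alike.

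Other genes of the seed programme were followed in lists. Late embryogenesis genes, whose proteins protect the drying embryo and are not storage proteins, were mostly lower too: 11 of 13 were lower and 1 higher in gun1-1, 9 lower in gun4-1 and 8 lower in gun5-1. Of all tested genes, 14.9%, 5.9% and 13.1% were lower and 18.8%, 8.23% and 16.4% higher in gun1-1, gun4-1 and gun5-1, the shares against which each list count below stands. The medians of the late embryogenesis list were -1.59, -3.49 and -1.74. In gun1-1 the changes of LEA4-5, LEA7 and EM1 were -2.58 (SE 0.53), -2.48 (SE 0.46) and -2.44 (SE 0.60). In gun4-1 M17 fell by 6.42 (SE 0.92), and the changes of LEA7 and PER1 were -3.57 (SE 0.63) and -3.51 (SE 1.24). In gun5-1 they were -2.54 (SE 0.85) for PER1, -2.03 (SE 0.42) for LEA18 and -1.85 (SE 0.74) for M10. LEA4-5, LEA18 and PER1 were called lower in all 3 mutants, LEA7 and M17 in gun1-1 and gun4-1, M10 in gun1-1 and gun5-1 and EM1 in gun1-1. DOG1, a regulator of seed dormancy, was the gene that rose in gun1-1, by 1.25 (SE 0.79), and it was chosen here after its value was seen.

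Other oil body genes were tested in 6, 6 and 5 of 11 cases, and 2 were lower and 0 higher in each mutant. OLEO4, another oleosin, fell with -1.64 (SE 0.71) in gun1-1 and -1.82 (SE 0.74) in gun4-1 and gave 0.06 (SE 0.61) in gun5-1, where it did not pass. AT3G01570 fell with -2.45 (SE 1.11) in gun4-1 and -2.08 (SE 1.19) in gun5-1, and AT2G47780 with -2.07 (SE 0.45) in gun1-1 and -1.84 (SE 0.37) in gun5-1. Of 5 other storage globulin genes, 2 were tested. AT2G28490 was lower in all 3 mutants, from 2.02 to 0.946 FPKM in gun1-1 and with log2 fold changes of -3.12 (SE 1.12) in gun4-1 and -1.05 (SE 0.59) in gun5-1. PAP85 rose in gun1-1 from 18.6 to 45.7 FPKM, by 1.30 (SE 0.20, q = 0.000376), and fell in gun4-1 with -2.26 (SE 0.30) and in gun5-1 with -0.42 (SE 0.23).

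Genes that make storage proteins ready or use up the stores were tested in full. Of 12 genes of storage protein processing and sorting, 1 was higher and 5 lower in gun1-1, 0 and 2 in gun4-1 and 1 and 3 in gun5-1, where 18.8% and 14.9%, 8.23% and 5.9%, and 16.4% and 13.1% of all tested genes were higher and lower, with medians of -0.25, -0.16 and -0.18. ALPHA-VPE, a vacuolar processing enzyme, fell with -3.46 (SE 1.04) in gun1-1 and -2.64 (SE 0.77) in gun5-1 and gave -0.33 (SE 0.47) in gun4-1, where it did not pass. BETA-VPE, the vacuolar processing enzyme of seeds, fell by 0.73 (SE 0.42) in gun4-1 and by 0.72 (SE 0.44) in gun5-1, and DELTA-VPE by 0.82 (SE 0.37) in gun1-1. GAMMA-VPE, a form of vegetative organs, rose by 0.28 (SE 0.18) in gun1-1 and by 0.57 (SE 0.18) in gun5-1. APA1, an aspartic proteinase, fell in all 3, with -0.53 (SE 0.17), -0.40 (SE 0.18) and -0.40 (SE 0.17).

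Of 17 genes of storage oil breakdown, 2 were higher and 10 lower in gun1-1, 0 and 5 in gun4-1 and 1 and 6 in gun5-1, against 14.9%, 5.9% and 13.1% of all tested genes lower, with medians of -0.36, -0.21 and -0.20. The transcript of ICL, isocitrate lyase of the glyoxylate cycle, was still abundant and fell from 749.8 to 489 FPKM in gun1-1. It fell by 0.47 (SE 0.20) in gun4-1 and by 0.72 (SE 0.18, ending in 446 FPKM) in gun5-1. MLS, malate synthase, fell by 1.15 (SE 0.29), from 52.1 to 23.5 FPKM, and PCK1, phosphoenolpyruvate carboxykinase, by 0.72 (SE 0.17) in gun1-1. Neither passed in gun4-1 or gun5-1. LACS6, a long-chain acyl-CoA synthetase, was lower in all 3 mutants, with -0.38 (SE 0.17), -0.38 (SE 0.18) and -0.48 (SE 0.18), and so was ACX1, an acyl-CoA oxidase, with -0.36 (SE 0.16), -0.28 (SE 0.17) and -0.56 (SE 0.18). LACS7, of the same kind as LACS6, was lower in gun4-1 with -0.34 (SE 0.20) and in gun5-1 with -0.31 (SE 0.20). PMDH2, a peroxisomal malate dehydrogenase, rose by 1.48 (SE 0.19) in gun1-1 and in gun5-1 from 258 to 552 FPKM.

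Of the activators of seed maturation, ABI3 was lower in every mutant and the embryo regulators were barely detected. ABI3 was at 1.959 FPKM in Col-0 and 0.715 in gun1-1, at 2.11 and 0.721 in the gun4-1 table and at 1.93 and 1.01 in the gun5-1 table. Its log2 fold changes were -1.45 (SE 0.46), -1.55 (SE 0.46) and -0.93 (SE 0.44). LEC1 was listed at 0 in Col-0 and at 0.0631, 0 and 0.230 FPKM in gun1-1, gun4-1 and gun5-1, FUS3 was at 0.172 FPKM in Col-0 and LEC2 at 0.167 FPKM, and all 3 were untested. ABI5, a bZIP factor of abscisic acid response, gave -1.94 (SE 1.43), -0.22 (SE 0.51) and -0.04 (SE 0.55), none of which passed, and ABI4 was at 1.79 FPKM in Col-0 and 0.167 in gun1-1 (q = 0.138) and at 1.93 and 0.0867 in the gun4-1 table (q = 0.568), which did not pass, and it fell from 1.76 to 0.308 FPKM in gun5-1 (q = 0.0353). BZIP25 rose by 0.39 (SE 0.20) in gun1-1. In all, 1 of 8 tested activators was higher and 1 lower in gun1-1, 0 and 1 in gun4-1 and 0 and 2 in gun5-1. Of all tested genes, 18.8% and 14.9% were higher and lower in gun1-1, 8.23% and 5.9% in gun4-1 and 16.4% and 13.1% in gun5-1. A share of 1 in 8 was near or below those of gun1-1. The shares lower in gun4-1 and gun5-1 lay above those of all tested genes, on 1 and 2 activators.

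The repressors showed small changes, with medians of 0.19, -0.02 and 0.03 over 12 tested genes. In gun1-1 FIE and EMF2, both of Polycomb complexes, rose by 0.47 (SE 0.28) and 0.46 (SE 0.25), and HDA19, a histone deacetylase, fell by 0.26 (SE 0.18). In gun4-1 0 of 12 were called by the authors' Cuffdiff test, with 0 at an unadjusted p under 0.05, and in gun5-1 SWN rose by 0.39 (SE 0.21), VAL1 by 0.32 (SE 0.20) and HDA6 fell by 0.49 (SE 0.25). VAL1 gave -0.09 (SE 0.20) in gun1-1 and 0.09 (SE 0.20) in gun4-1, and PKL gave 0.16, 0.12 and 0.08 with SE of 1.42 to 1.66, none of which passed.

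Tissue markers were followed in the same way, as lists of seed coat and endosperm, root and shoot genes. Of 9 seed coat and endosperm genes, 5 were tested; the defining seed coat gene BAN and the endosperm gene ZOU were listed at 0 in every group, and the summed level was 35.7 FPKM in Col-0 and 34.8 in gun1-1, 38.3 and 45.7 in the gun4-1 table, and 35.1 and 30.4 in the gun5-1 table. EPR1, an extensin-like gene of the endosperm, rose in all 3 mutants, by 0.94 (SE 0.28), 1.56 (SE 0.27) and 0.61 (SE 0.31), against the direction of most storage genes. MUM2 fell by 0.38 (SE 0.21) in gun1-1 and by 0.34 (SE 0.22) in gun5-1, and EXPA2 by 0.72 (SE 0.40) in gun5-1. Of 6 root markers, 4 were lower in gun1-1 and 3 each in gun4-1 and gun5-1, against 14.9%, 5.9% and 13.1% of all tested genes. Their summed level was 101 FPKM in Col-0 and 77.5 in gun1-1, 109 and 90.2 in the gun4-1 table, and 99.6 and 73.8 in the gun5-1 table. EXPA18 fell by 0.70 (SE 0.25), 0.58 (SE 0.24) and 0.90 (SE 0.27). EXPA7 was lower in all 3 mutants too, with -0.36, -0.44 and -0.49 (SE 0.21, 0.21 and 0.22). So was COBL9, with -0.49, -0.60 and -0.47 (SE 0.31, 0.31 and 0.32). RSL4 was lower in gun1-1 only, with -0.57 (SE 0.38). The other root markers, PHT1;1 (-0.14, 0.14 and -0.003) and PER64 (-0.30, -0.01 and -0.41), were called in no mutant. Of 6 shoot markers, 5 were tested, of which 4, 2 and 4 were higher and 0 lower, led by the photosynthesis genes CA1 and LHCB1.1. In gun4-1 these were the only 2 called. Outside photosynthesis, SPCH was higher only in gun1-1, by 1.08 (SE 0.32), FAMA only in gun5-1, by 0.57 (SE 0.28), and GL1 was untested. The log2 fold changes of CA1 were 7.70, 4.61 and 7.54 in gun1-1, gun4-1 and gun5-1. Those of FAMA were 0.05, 0.16 and 0.57, and those of SPCH 1.08, -0.02 and 0.43. Whether more shoot tissue had a part in the rise of photosynthesis genes on the inhibitor was not tested. The part of tissue make-up in the storage gene differences was not tested.

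**Figure D5:**
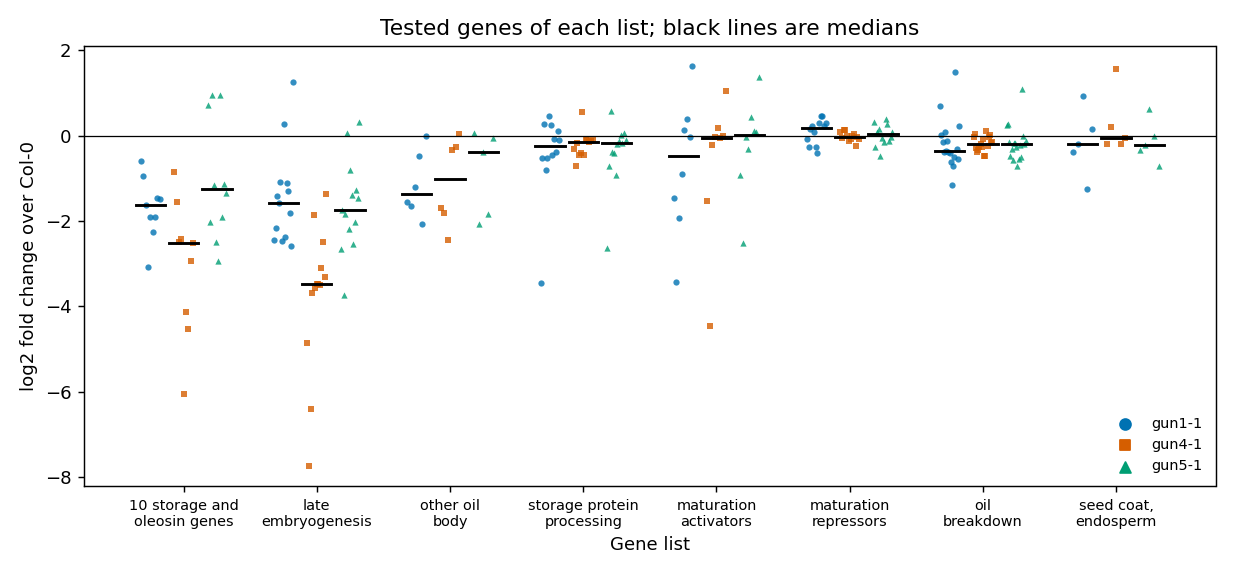
Log2 fold change over Col-0 (vertical axis) of each tested gene with a finite value, by list and mutant (horizontal axis), with the median as a black line. The medians of the 10 storage and oleosin genes (-1.64, -2.51 and -1.25) and of the late embryogenesis genes (-1.59, -3.49 and -1.74) lie below those of the processing, repressor and oil breakdown lists, which are between -0.36 and 0.19.

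The genes whose changes lay closest to the members' median profile were searched among 18112 genes tested in all 3 tables with a mean of at least 1 FPKM, by Euclidean distance over the 3 log2 fold changes. The nearest was AtLEA4-1, a late embryogenesis gene, at a distance of 0.167, with -1.80, -2.51 and -1.28 in gun1-1, gun4-1 and gun5-1, called in all 3. ERL1 (distance 0.356), AT3G03341 (0.403), AT5G07330 (0.516) and HVA22B (0.530) followed. Of these, AT5G07330 and HVA22B were also called lower in all 3 mutants, ERL1 in gun1-1 and gun5-1 and AT3G03341 in none.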

How the data were processed

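Group values came from 12 libraries, 3 per genotype. The authors deposited 1 Cuffdiff table per mutant, with FPKM per transcript and genotype, the log2 fold change of mutant over Col-0, a signed test statistic (a score), a p-value and a q-value. Per the submitters' processing notes, Trimmomatic, TopHat, Cufflinks and Cuffdiff were used; their versions, the build and the annotation are not given in the sources used. The source is given as whole seedling in the sample labels and as leaf in the design text. Values per library are not in the tables used. The depth is therefore unknown, and the spread between libraries could not be computed.

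The transcript of highest mean FPKM over the genotypes stood for a gene. Calls required status OK and q under 0.05 in the authors' table. The SE of a log2 fold change is its ratio to the test statistic or, where larger and p was above the smallest listed (5e-05), the ratio to the quantile of the normal distribution at the deposited p. Quantiles of p were a median 1.74 times the listed statistics, so these SE are mostly wide and some called genes lie within 1.96 SE of 0. At the smallest listed p the statistic alone was used. Among the members this gave the smaller SE for SESA5 in all 3 mutants and for CRA1 and CRC in gun1-1. It did so too for SESA3 in gun4-1 and SESA2 in gun5-1. Differences between mutants were divided by the root of the summed squared SE (two-sided normal p, Benjamini-Hochberg). The test was checked only on simulated data drawn with these same SE, which cannot show whether the SE themselves are right. Shared Col-0 libraries and, where they are wide, the SE lower the sensitivity of the test.

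Promoters and coding sequences were read by locus code from the RefSeq genome and annotation (TAIR10.1). Of the 10 deposited spans, 8 equal the RefSeq gene. Motifs were searched on both strands in 250 bases before the gene start, and also with 50 bases after it, the planned window. Planned protein identities were replaced by those of coding sequences, since no protein table was used, by global alignment (Biopython 1.88).

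The 10 genes and the 10 further lists (106 genes) were chosen with earlier results of these data known. Genes were named by rule: all members, the 2 genes on each side of the array, ABI3, LEC1, LEC2, FUS3, ABI5, VAL1 and PKL, up to 3 called genes with the largest change per list and mutant (not all printed), and the 5 nearest profiles. BAN, ZOU, DOG1, the other tissue markers and further values of named genes in other mutants were added outside this rule. An item withheld for evaluation is not reported here.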

Additional observations from a re-analysis of the deposited data

Results flagged for a closer look

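Of the 10 genes, 2 changed unlike in different mutants by the test of the difference between log2 fold changes, adjusted over all genes. SESA5 fell further in gun4-1 than in the other mutants: the change in gun1-1 minus that in gun4-1 was 4.16, and that in gun4-1 minus that in gun5-1 was -3.57, which did not pass with the SE from the deposited p alone. SESA3 rose in gun5-1 and fell in gun1-1 and gun4-1: its change in gun1-1 minus that in gun5-1 was -2.58, and in gun4-1 minus gun5-1 it was -3.44. All 4 rest on 1 value per genotype and table. In gun5-1 the rise of SESA3 stood beside a fall of SESA2, its closest relative in coding sequence. How reads were divided between SESA2 and SESA3 was not tested.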

How the results depend on the processing

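No paired analysis was possible because the tables hold no column per library, and for the same reason no replicate could be left out. The members called in gun1-1 were 4 instead of 7 with p from the deposited test statistic. At the median over genes, the deposited p goes with larger statistics than those listed, by a factor of 1.74. In gun4-1 p from the statistic lost SESA2 and gained CRA1 and CRC, 4 calls in all. In gun5-1 it lost SESA3 and CRB and gained CRA1, 3 in all. For CRA1 and CRC in gun4-1 and gun5-1 the deposited p goes with statistics smaller in size than those listed. With log2 of FPKM + 1 in gun4-1, the median of the members was -1.95 instead of -2.51 and the ratio of sums -3.13 instead of -3.73. The fold change of SESA5 there was -5.03 instead of -6.06. In gun1-1 the change of SESA4, which ended at 0.320 FPKM, was -1.49 instead of -3.08, and -2.74 with FPKM + 0.1. These moves follow by construction of the pseudocount. With SE from the deposited p alone, 3 differences between mutants passed, and the difference of SESA5 between gun4-1 and gun5-1 did not. No alternative tried turned the direction of a median, of a sum or of a called member, but most of them could not. A pseudocount keeps the sign of each fold change, and a stricter q or another p leaves the fold change as it is. Centring on genes of 5 FPKM or more moved values by 0.01 to 0.04.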
